A study of Mus musculus with 4 samples.

Results

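The Hox genes are the protein-coding genes named Hoxa, Hoxb, Hoxc or Hoxd followed by a number. They were taken by symbol from the mm9 gene annotation (GENCODE vM1), which held 40 such gene models. Both Hoxa3 models were joined, leaving 39 Hox genes of 22367 protein-coding gene models, with 11 in cluster A, 10 in cluster B, 9 in cluster C and 9 in cluster D.

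The data were ChIP-seq of H3K9me3 and H3K36me3 in wild type (WT) 129S1/SvImJ mouse ES cells and in H3.3 G34R ES cells. The G34R cells were heterozygous at H3f3a, where a targeted single-copy minigene with the glycine to arginine substitution was expressed from the endogenous H3f3a promoter after Cre excision, and both copies of H3f3b were WT. These mutants were targeted ES cell clones. There were 4 libraries in 4 groups of 1, and the authors combined WT and G34R cells into 1 list of enriched genic regions for each mark. A region had to be enriched in WT or in G34R cells and the lists do not say in which, so WT and G34R cells could not be compared at the Hox genes. The lists hold positions without read counts, so the depth is unknown, there is no replicate error and no test over samples was possible. Positions show no expression either, and the ES cell label could not be checked against marker genes. Intervals are 95% Wilson intervals, which cover the counting of 200 bp bins only, and neighbouring bins are not independent.

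Hox genes encode homeodomain transcription factors that specify position along the head to tail axis of the embryo. They lie in 4 clusters in which the order of the genes follows the order of their expression, from anterior genes (paralog groups 1 to 3) through central (4 to 8) to posterior (9 to 13). In ES cells the clusters are mostly silent and are known as large Polycomb domains carrying H3K27me3, a mark for which no library was part of the data used here. H3K9me3 is best known from heterochromatin and silenced repeats, and H3K36me3 from the bodies of transcribed genes.

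H3K9me3 regions covered most of the Hox sequence, and H3K36me3 regions covered none of it. All 39 Hox genes were touched by the H3K9me3 list, in which 40.2% of protein-coding genes had 1 or more bins. None of the 39 was touched by the H3K36me3 list, against 34% of protein-coding genes. The Hox genes spanned 1426 different 200 bp bins, of which 1237 were in the H3K9me3 list (86.75%, 84.89% to 88.41%), whereas 3.43% of all genic bins were. The H3K36me3 list held 0 of the 1426 bins and 5.33% of all genic bins. Genic bins here are those of any GENCODE gene, including bins outside the UCSC genes to which the authors limited the lists.

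The coverage of single Hox genes was high, with few exceptions. The share of a gene's bins in the H3K9me3 list ran from 34.07% at Hoxc4 to 100%, with a median of 96.58%. All bins were in the list at 16 Hox genes, a coverage reached by 0.903% of protein-coding genes. At least 80% of bins were in the list at 35 Hox genes, against 1.77% of protein-coding genes, and at least 50% at 38, against 3.63%. A further 9 Hox genes lacked a single bin of full coverage. The exceptions under 80% were Hoxc4, Hoxd1, Hoxd3 and Hoxd4.

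**Figure D1:**
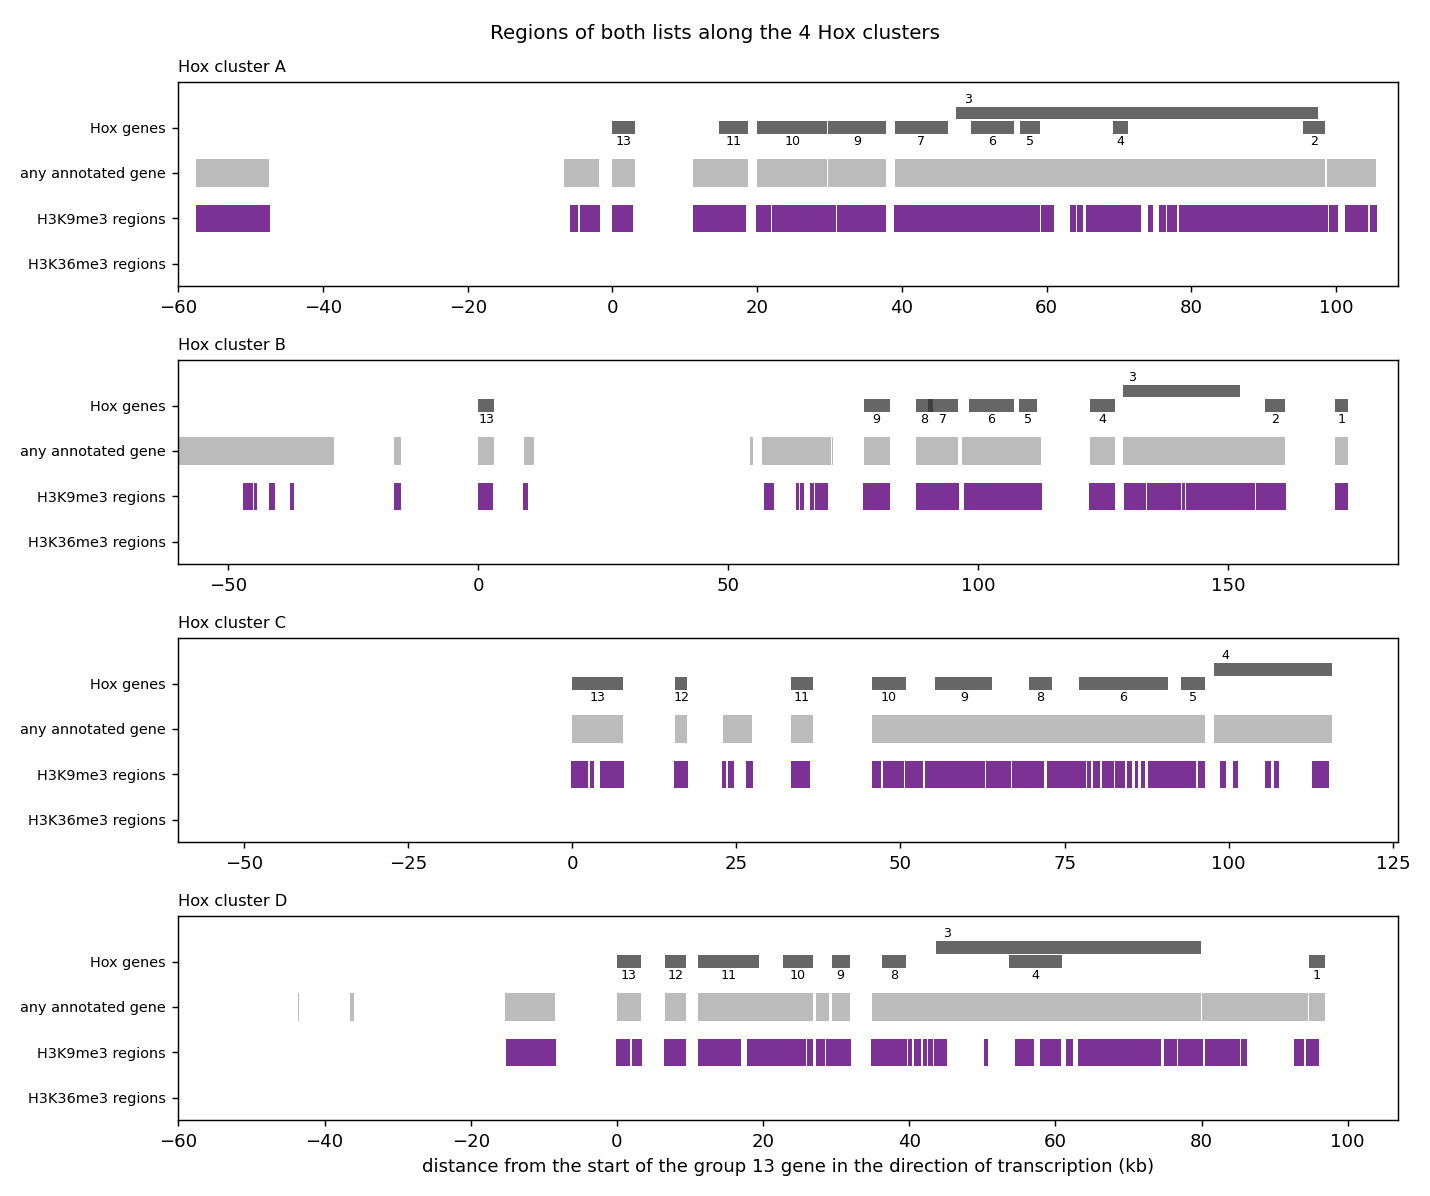
Maps of Hox clusters A to D, with distance from the start of the group 13 gene in kb on the horizontal axis and rows for the Hox genes (labelled by paralog group, the longest gene models raised), all annotated genes, H3K9me3 regions and H3K36me3 regions (1 Hox gene is not drawn). The H3K9me3 row is filled along most Hox genes, with openings in Hoxc4 and near the start of Hoxd3. The H3K36me3 row is empty in all 4 maps.

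The clusters differed in how completely they were covered, as the maps of the 4 clusters show. Cluster B was covered at 98.48% of bins (96.5% to 99.35%) and cluster A at 92.48% (89.63% to 94.6%). Cluster D was lower at 79.44% (74.68% to 83.5%), and cluster C was lowest at 74.7% (69.79% to 79.05%). The intervals of A and B lay above those of C and D, and those of C and D overlapped. Many of the bins outside the list in C and D lay in Hoxc4 (60 bins) and Hoxd3 (56 bins). The 37 other Hox genes had 93.1% of their bins in the list (91.52% to 94.41%), a share that pools all 4 clusters. The clusters also differed by their median gene, at 100% in B, 97.56% in A, 94.44% in D and 89.47% in C. By position in the cluster, the posterior genes were covered at 94.29% (91.64% to 96.13%), the anterior genes at 85.28% (82.26% to 87.85%) and the central genes at 82.54% (78.89% to 85.67%). This order rested on 3 long genes chosen after their values were seen: without Hoxc4 the central genes were covered at 93.85% (91.01% to 95.83%), and without Hoxa3 and Hoxd3 the anterior genes at 95.41% (91.5% to 97.57%), intervals that overlap that of the posterior genes. The median gene was at 100% in the central group, 95.17% in the anterior and 94.84% in the posterior. The lowest posterior gene was Hoxc13, known for its role in hair, at 85%.

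Of the anterior genes, which pattern the hindbrain and the pharyngeal arches, Hoxa2 (chr6:52112350-52115412, minus strand), Hoxb1 (chr11:96227066-96229570, plus strand) and Hoxb2 (chr11:96212946-96217003, plus strand) were covered at 100%. The group 3 genes, known for the pharyngeal arches and the thymus, were the longest gene models of the family. Hoxa3 spanned 49981 bp (chr6:52113358-52163338, minus strand) with Hoxa4, Hoxa5 and Hoxa6 inside its outer bounds, and 225 of its 251 bins were in the list. Hoxb3 spanned 23360 bp (chr11:96184640-96207999, plus strand), with 113 of 117 bins. Hoxd3 spanned 36346 bp (chr2:74549986-74586331, plus strand) with Hoxd4 inside, and only 127 of its 183 bins were in the list. Hoxd1 (chr2:74601037-74603200, plus strand) had 7 of 11 bins (63.64%), all in 1 region that took in the gene start, and the 4 bins left out were at its far end.

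In the central group, whose genes act in the neck and trunk, 9 of 15 genes were covered at 100%. Among them were Hoxa4, Hoxb4, a gene known for its effect on blood stem cells, and Hoxd8. Hoxa6 (chr6:52155430-52161355, minus strand) had 30 of 30 bins and Hoxa7 (chr6:52164490-52171853, minus strand) 38 of 38. Hoxb6 (chr11:96153790-96162883, plus strand) had 47 of 47 bins and Hoxb7 (chr11:96145571-96151650, plus strand) 32 of 32. Each of these lay inside a single region. Hoxc6 (chr15:102828688-102842312, plus strand) had 58 of 69 bins (84.06%), split over 9 regions by short gaps in introns. Hoxd4, a hindbrain gene, had 28 of 37 bins (75.68%), and the bin at its start was not in the list.

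Hoxc4 (chr15:102849367-102867274, plus strand) stood apart from every other Hox gene, with 31 of 91 bins in the list (34.07%). Its 5 regions were chr15:102850201-102851200, chr15:102852201-102853000, chr15:102857001-102858000, chr15:102858401-102859200 and chr15:102864201-102866800. The 2600 bp region was the one near the gene's 3′ end, and the first and last bins of the gene model were both outside the list. The longest gap, 5000 bp at chr15:102859201-102864200, was intronic throughout. Only bins in UCSC genes could enter the lists, and that gene set was not used here. Whether parts of the long Hoxc4, Hoxd3 and Hoxa3 models lay outside UCSC genes was not tested.

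The posterior genes, which act in the lower trunk, limbs and urogenital tract, were covered at 85% or more without exception. Hoxa9, a gene known from blood formation and leukaemia (chr6:52173099-52181088, minus strand), had 40 of 41 bins in the list. Hoxa10 (chr6:52181196-52190853, minus strand), which acts in the uterus, had 49 of 50. Hoxc9 (chr15:102806870-102815530, plus strand), a gene of the thoracic spinal cord, had 43 of 44. Hoxd11 (chr2:74517449-74525798, plus strand), a gene of the forearm, had 38 of 42, and Hoxc13 (chr15:102751534-102759245, plus strand) 34 of 40. Hoxd9, Hoxd12, Hoxc12 and Hoxb9 were covered at 100%. The digit genes Hoxa13 and Hoxd13 had 15 of 17 and 17 of 18 bins, and Hoxb13, known from the prostate, had 15 of 16.

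The regions themselves were wide. A total of 70 H3K9me3 regions touched a Hox gene, 0.2154% of the 32502 in the list, and their median width was 2600 bp against 800 bp in the whole list. Of these, 19 were at least 5 kb wide (27.14%), against 1.301% of all regions. The Hox genes thus held 4.492% of the 423 regions of that width. The widest was 20600 bp at chr6:52112001-52132600, over Hoxa2 and part of Hoxa3, and ranked 10 in the list. It was followed by 20200 bp at chr6:52151801-52172000, over Hoxa5, Hoxa6, Hoxa7 and part of Hoxa3 (rank 13), and 15600 bp at chr11:96152801-96168400, over Hoxb5 and Hoxb6 (rank 24). Regions of 13800 bp in Hoxb3 (rank 30) and 11400 bp in Hoxd3 (rank 40) came next.

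Most Hox genes lay in 1 or 2 regions. A single region touched 22 of them, 2 regions touched 10, and the most was 9, in Hoxa3 and Hoxc6. Inside the Hox genes there were 43 gaps, of which 23 were a single bin of 200 bp and 5 exceeded 1 kb. The 2 longest were each 5000 bp, in Hoxc4 and near the start of Hoxd3 at chr2:74551601-74556600. Of the 140 ends of Hox regions, 46 lay within 200 bp of an annotated gene end. When regions within 2 kb were joined, the 70 regions became 21 runs. The longest were 50800 bp from Hoxc10 to Hoxc5 (rank 4 of 22532 runs) and 50000 bp from Hoxa11 to Hoxa5, with the first part of Hoxa3 (rank 5). Next were 42400 bp over Hoxa4, Hoxa2 and part of Hoxa3 (rank 9) and 39400 bp from Hoxb4 to Hoxb2 (rank 11).

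**Figure D2:**
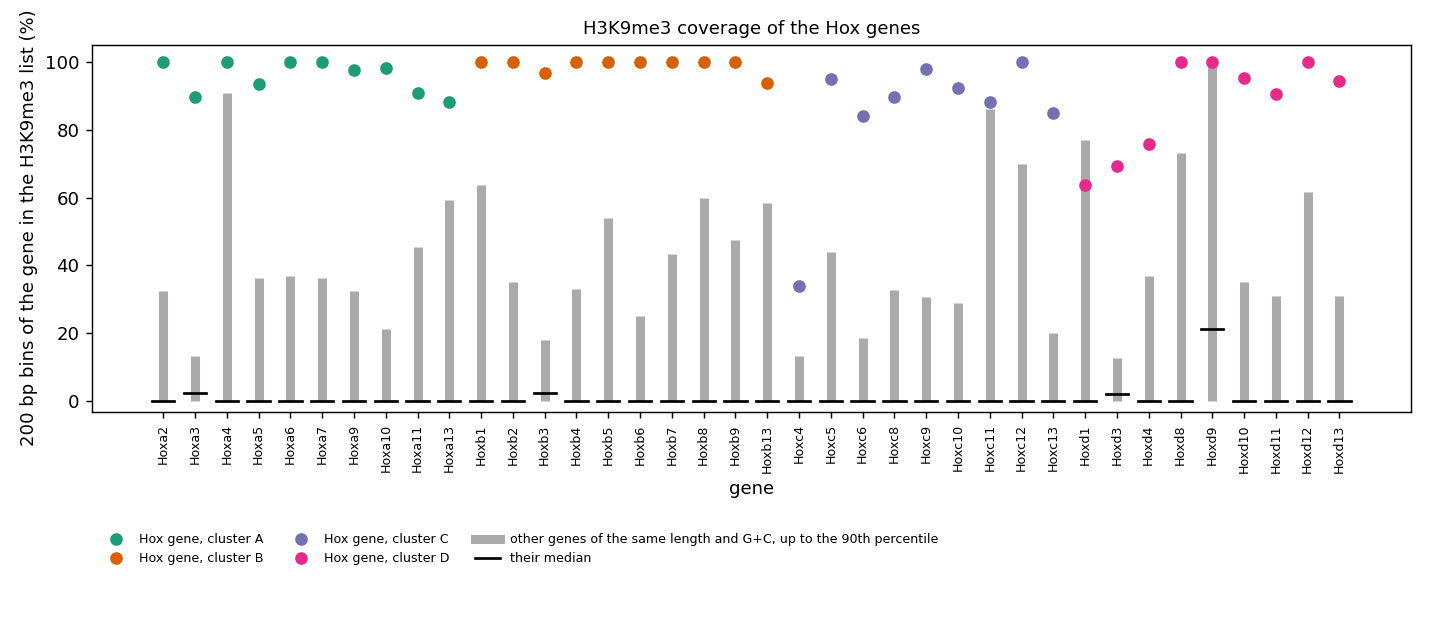
Share of each Hox gene's 200 bp bins in the H3K9me3 list (points, coloured by cluster), with the median (black line) and the range up to the 90th percentile (grey bar) of the other protein-coding genes of the same length and G+C. The plot shows 38 Hox genes, of which 36 lie above their grey bar, Hoxd9 is level with its bar at 100%, and Hoxd1 lies below it.

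The Hox genes had a median length of 4058 bp and a median G+C of 52.05%, and each was set beside all other protein-coding genes with 80% to 125% of its length and a G+C within 2 percentage points. There were 102 to 674 such genes for each Hox gene (median 352), and 6100 different gene models in all, which were not joined by symbol. Of these 6100, 39.03% were touched by the H3K9me3 list and 42.89% by the H3K36me3 list. At the share of its own comparison genes, 13.31 of the 39 Hox genes would have been touched by H3K9me3 and 39 were, a ratio of 2.931. The same sum for H3K36me3 came to 15.43 genes, and 0 were touched. The H3K9me3 ratio depended on these choices: it was 5.095 with regions of at least 1000 bp and 1.982 with genes matched by length and CpG per kb.

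The difference in coverage was larger than the difference in being touched at all. The median coverage of the comparison genes was 0 for 35 of the 39 Hox genes, as in the plot of coverage by gene. The coverage of 37 Hox genes exceeded the 90th percentile of their comparison genes and that of 36 exceeded the 95th. For 8 Hox genes, among them Hoxa3, Hoxa10, Hoxb3, Hoxb6 and Hoxd13, no comparison gene had as high a share. The most comparison gene models at or above a Hox gene was 30, at Hoxd1, where Gsx2 counted as 2 models.

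A small set of other genes had coverage like that of the Hox genes. At least 80% of bins were in the list at 139 of the 6100 comparison genes (2.279%). Those that equalled or exceeded the most Hox genes were Klf14 and Msx3 (8 Hox genes each), Nkx6-1 (7), and Drd5, Fezf2 and Hand1 (6 each), all covered at 100%. Msx3 and Nkx6-1 are themselves homeobox genes, Klf14 and Fezf2 encode zinc finger factors, Hand1 a basic helix-loop-helix factor and Drd5 a dopamine receptor. The comparison gene 5730596B20Rik, also at 100%, lies within cluster A.

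**Figure D3:**
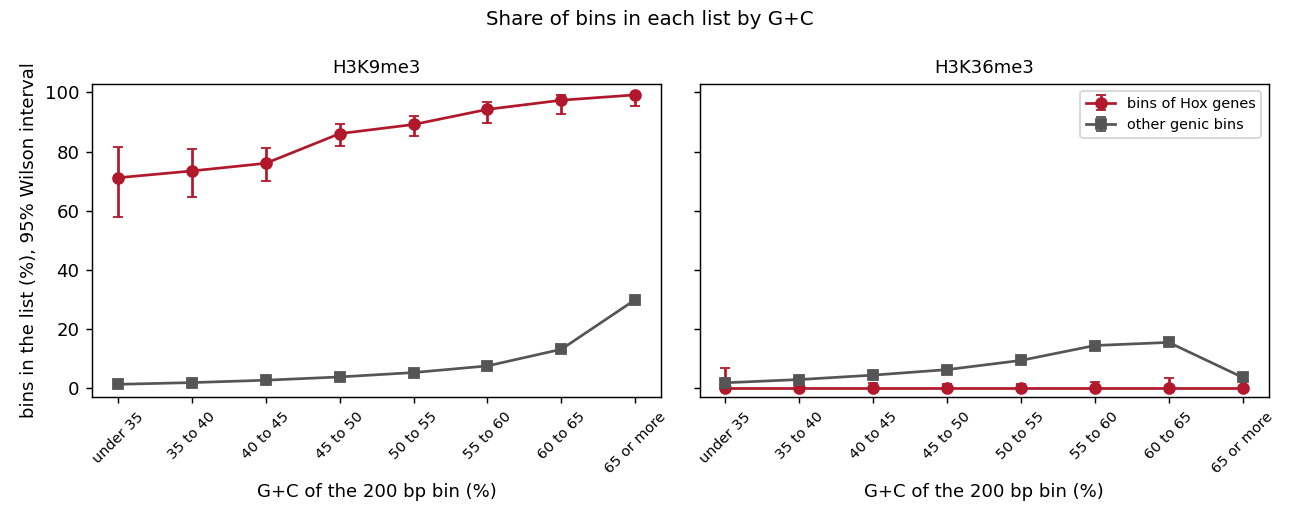
Share of 200 bp bins in the H3K9me3 list (left) and the H3K36me3 list (right) by the G+C of the bin, for bins of Hox genes (red) and all other genic bins (grey), with 95% Wilson intervals. The red H3K9me3 points run from 71.15% to 99.19% and lie above the grey points in every class, and the red H3K36me3 points are all at 0.

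H3K9me3 coverage rose with G+C in Hox genes and elsewhere. Hox bins under 35% G+C were in the list at 71.15% (57.73% to 81.67%, 52 bins), and those of 65% or more at 99.19% (95.57% to 99.86%, 124 bins). The same classes of other genic bins stood at 1.236% and 29.88%. The Hox share was 57.56 times the other share in the lowest class and 3.32 times in the highest, where the Hox share was close to its limit of 100%. In percentage points the difference was 69.91 in the lowest class, 86.83 at 55% to 60% G+C and 69.31 in the highest. The H3K36me3 share of other genic bins peaked at 15.42% between 60% and 65% G+C, where 115 Hox bins held none.

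CpG content gave a similar picture. Hox bins without a CpG were in the H3K9me3 list at 71.1% (63.94% to 77.34%), against 2.082% of other genic bins without one. With 11 or more CpG the shares were 96.5% (93.48% to 98.15%) and 26.84%. The 189 Hox bins outside the list had a median G+C of 44% and a median of 1 CpG, whereas the 1237 inside had 50.5% and 4. Both quantities were therefore lower in the openings.

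Within Hoxc4, the bins in the list had a median of 50% G+C and 3 CpG and those outside 45% and 1 CpG. As examples of its sequence, the first line below is the intronic bin of the list with the most CpG in this gene (chr15:102857801-102858000, mm9, plus strand, 11 CpG), and the second is the bin at the middle of its longest gap (chr15:102861601-102861800, mm9, plus strand, 0 CpG). They are shown because Hoxc4 was the least covered Hox gene, and capitals mark each CpG. As the first was chosen for its CpG, the difference in CpG between them is no result. The gap that follows the first bin directly (chr15:102858001-102858400) had a G+C of 58.25%, above the 55% of that bin.
Hoxc4 intron, in the H3K9me3 list: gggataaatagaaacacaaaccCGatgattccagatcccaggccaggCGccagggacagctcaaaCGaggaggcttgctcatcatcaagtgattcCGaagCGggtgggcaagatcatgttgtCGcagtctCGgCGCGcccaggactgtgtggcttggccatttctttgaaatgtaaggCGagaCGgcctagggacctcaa
Hoxc4 intron, in the longest gap: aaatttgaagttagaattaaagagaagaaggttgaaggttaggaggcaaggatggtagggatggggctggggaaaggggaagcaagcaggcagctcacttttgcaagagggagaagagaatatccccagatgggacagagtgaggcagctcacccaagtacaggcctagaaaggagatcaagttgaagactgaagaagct

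**Figure D4:**
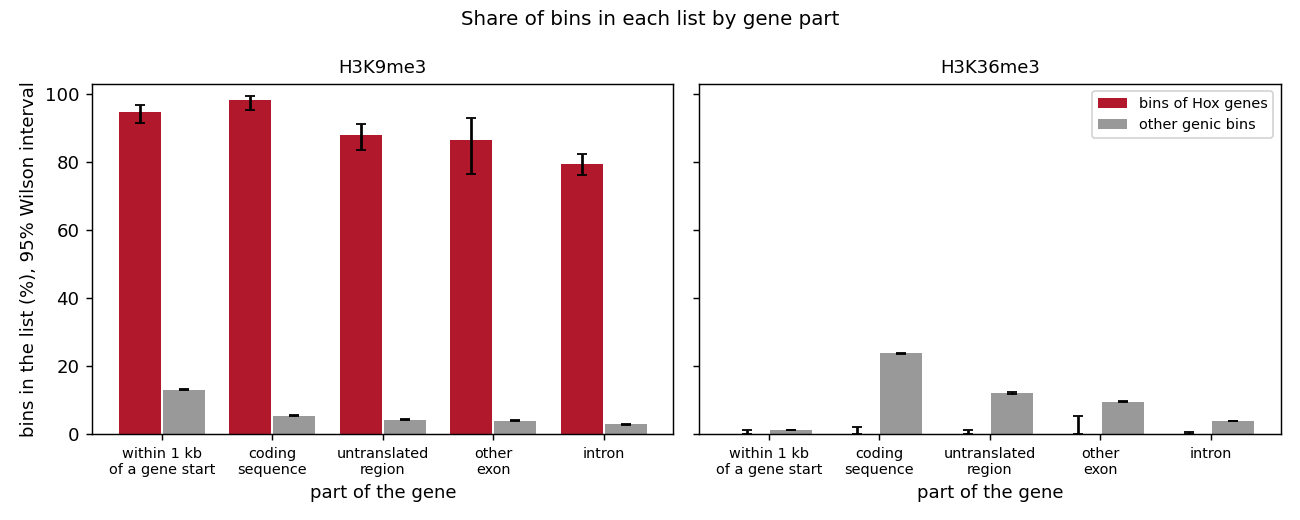
Share of 200 bp bins in the H3K9me3 list (left) and the H3K36me3 list (right) by part of the gene, for bins of Hox genes (red bars) and all other genic bins (grey bars), with 95% Wilson intervals. The red H3K9me3 bars run from 79.39% in introns to 98.3% in coding sequence, and the red H3K36me3 bars are at 0 beside grey bars of up to 23.77%.

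Over all Hox genes, bins in coding sequence and near gene starts had the highest H3K9me3 coverage and introns the lowest. Bins in coding sequence were in the H3K9me3 list at 98.3% (95.11% to 99.42%), and those within 1 kb of a gene start at 94.72% (91.47% to 96.77%). Untranslated regions stood at 87.77% (83.4% to 91.11%), other exons at 86.57% (76.4% to 92.77%) and introns at 79.39% (76.03% to 82.38%). Of the 189 bins outside the list, 128 were intronic, and 107 of these 128 lay in Hoxc4 (52), Hoxd3 (34) and Hoxa3 (21). Without these 3 genes coding sequence was covered at 97.92% (94.05% to 99.29%), gene starts at 97.84% (95.06% to 99.08%), introns at 94.21% (91.32% to 96.19%) and untranslated regions at 88.31% (83.53% to 91.84%), so the low place of introns rested on them. In other genic bins, as over all Hox genes, introns were lowest (2.907%), below other exons (4.07%) and untranslated regions (4.279%). Gene starts, at 13.17%, stood above coding sequence, at 5.463%, whereas the Hox intervals of both these parts overlapped. The H3K36me3 list held 23.77% of other coding bins and 12.15% of other untranslated bins, and no Hox bin of any part.

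H3K9me3 ran along the Hox genes from start to end. Within 1 kb of a Hox gene start, 94.42% of bins were in the list (91% to 96.59%), and farther away 84.96% (82.79% to 86.9%). Of all Hox H3K9me3 bins, 20.53% lay within 1 kb of a start (18.38% to 22.87%), where 18.86% of all Hox bins lie. With the starts of all transcripts in place of gene starts, these were 36.94% of the H3K9me3 bins and 34.01% of all Hox bins. The bin that holds the gene start was in the list at 36 of 39 genes, all but Hoxb3, Hoxc4 and Hoxd4, and the bin that holds the gene end at 31. With each gene cut into 10 equal pieces from start to end, the lowest share was 74.5% in piece 3 and the highest 95.24% in piece 9. Piece 1, at the start, stood at 87.57% (81.75% to 91.73%) and piece 10, at the end, at 91.28% (86.11% to 94.64%), and these intervals overlapped.

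Gene part and G+C were then held at the same time. At the share of other genic bins of the same gene part and the same 2 point class of G+C, 119.6 of the 1426 Hox bins would have been in the H3K9me3 list (8.389%), and 1237 were, a ratio of 10.34 (10.12 to 10.54). The ratio was 10.72 in cluster A, 11.11 in B, 10.6 in C and 8.854 in D. For H3K36me3 the same sum was 126.2 bins, and 0 were in the list. The other genic bins came from GENCODE genes of every type, whereas only bins in UCSC genes could be listed. Any of them outside UCSC genes would lower the shares used for both sums, and how many there were was not tested.

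The homeobox, the 180 bp of coding sequence for the DNA-binding homeodomain, was located in all 39 genes from the annotated coding sequence and lay in 1 exon in each. It was wholly inside H3K9me3 regions in 37 genes and in no H3K36me3 region. The exceptions were Hoxc9, with 40 bp of the homeobox covered, and Hoxd10, with 3 bp, and both fell in gaps of a single bin. Homeoboxes held between 4 and 18 CpG, with a median of 10.

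The homeobox of Hoxc9 is printed beside that of its paralog Hoxb9 because the first lay mostly in a gap and the second wholly inside the list. Each is read 5′ to 3′ on the coding strand from mm9, with every CpG in capitals, at chr11:96135973-96136152 (Hoxb9, plus strand) and chr15:102814361-102814540 (Hoxc9, plus strand).
Hoxb9 homeobox: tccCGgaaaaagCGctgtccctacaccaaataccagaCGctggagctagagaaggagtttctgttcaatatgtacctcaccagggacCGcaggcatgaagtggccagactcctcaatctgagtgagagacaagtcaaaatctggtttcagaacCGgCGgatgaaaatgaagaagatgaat
Hoxc9 homeobox: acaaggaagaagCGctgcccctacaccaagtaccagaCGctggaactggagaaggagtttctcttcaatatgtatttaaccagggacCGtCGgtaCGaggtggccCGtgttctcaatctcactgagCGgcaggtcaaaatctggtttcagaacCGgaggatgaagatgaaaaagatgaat

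Both homeoboxes were 83.89% identical. The Hoxc9 homeobox held 8 CpG and the wholly covered one of Hoxb9 held 6, both below the median of 10 over all Hox homeoboxes.

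Because paralogs resemble each other, the uniqueness of the sequence was checked. Of the 1426 Hox bins, 1369 (96%) had every 50-base stretch at a single place in mm9. The share was 96.69% in bins of the H3K9me3 list and 91.53% in the 189 bins outside it. A 50-base stretch with over 5 copies occurred in 53 Hox bins, 38 in the list and 15 outside. Read alignments with too many matches were dropped by the authors, and the part of this in the gaps was not tested.

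The clusters hold other genes, and most of these were in the H3K9me3 list too. There were 28 other annotated loci within the cluster bounds, mostly noncoding and many overlapping a Hox gene, so that they share its bins. Of these, 25 had H3K9me3 bins, 10 were covered wholly and 0 had H3K36me3. Among all annotated genes other than protein-coding ones, 10.4% had H3K9me3 bins and 6.88% had H3K36me3 bins. Hoxa11as, the antisense transcript of Hoxa11, had 28 of 28 bins in the list, Hoxb3os, on the opposite strand over the end of Hoxb3 and part of Hoxb2, 47 of 48, and the lincRNA 2700086A05Rik, which runs against Hoxa3, 174 of 200. Since a position has no strand in these lists, such overlapping genes cannot be told apart.

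The microRNA genes of the clusters, which repress Hox messages among other targets, fell on both sides. Mature sequences from RefSeq (GRCm38.p6) are printed for the families with members inside and outside the list, with the seed (bases 2 to 8) in capitals, and hairpin positions are those of the mm9 annotation. The miR-10 family shares the seed ACCCUGU: the Mir10a hairpin (chr11:96178479-96178588), in the bounds of Hoxb4, was in the list and the Mir10b hairpin (chr2:74564127-74564194), in the bounds of Hoxd4, was not.
mmu-miR-10a-5p: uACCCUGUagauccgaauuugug
mmu-miR-10b-5p: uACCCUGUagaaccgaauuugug

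The miR-196 family shares the seed AGGUAGU. The hairpins of Mir196b (chr6:52180080-52180164) and Mir196a-2 (chr15:102803772-102803881) were in the list, whereas Mir196a-1 (chr11:96126478-96126579), in the wide interval between Hoxb13 and Hoxb9, was not. Mir615, in the bounds of Hoxc5, was in the list too.
mmu-miR-196a-5p: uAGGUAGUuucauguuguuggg
mmu-miR-196b-5p: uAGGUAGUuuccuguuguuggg

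Most of the nearest protein-coding genes outside the clusters had little or no H3K9me3, except for the even-skipped homeobox genes that flank clusters A and D. Evx1, 52.62 kb from Hoxa13, had 25 of 25 bins in the list, and Evx2, 8.449 kb from Hoxd13, had 34 of 35. The nearest other protein-coding genes were at or near 0, with Skap2 at 0.5208% and Snx10 at 0.8955% beside cluster A, Skap1 at 2.644% beside B, and Hibadh, Calcoco2, Snx11, Gm17649, Calcoco1, Smug1, Cbx5, Lnp, Mtx2 and Hnrnpa3 at 0. Ttll6, 28.86 kb from Hoxb13, was between them at 14.47%. Of the genic bins within 100 kb of a cluster, those in the H3K9me3 list made up 87.8% on the Evx1 side of cluster A (72 of 82 bins, of which Evx1 itself held 25) and 27.34% on the Evx2 side of D, and between 0% (D) and 33.33% (C, 3 bins) on the other sides. No H3K36me3 bin lay within 100 kb of any cluster, and the nearest was 120.2 kb from cluster B, 156.9 kb from C, 485.1 kb from A and 758.8 kb from D. Among these neighbours H3K36me3 was found in Snx11 (45.1% of bins), Hnrnpa3 (26.92%), Cbx5 (22.22%), Calcoco1 (19.23%) and Snx10 (2.985%).

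The partners and regulators of Hox genes had much lower H3K9me3 coverage as groups, apart from single members. The TALE homeodomain factors (Pbx, Meis and Pknox), which bind DNA together with Hox proteins, had H3K9me3 bins in 7 of 9 genes, against 40.2% of protein-coding genes. Their median coverage was 1.97% of bins and the highest was 10.53%, at Meis3. H3K36me3 was found in 3 of the 9, near the 34% of protein-coding genes: Pbx2 (45.16%), Pknox1 (8.796%) and Pbx4 (6.373%). Of the caudal genes, which activate Hox genes in the posterior embryo, Cdx2 had 34 of 34 bins in the H3K9me3 list, Cdx1 had 7.955% and Cdx4 had none, and none of the 3 had H3K36me3.

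Polycomb genes, whose products keep Hox genes silent, had H3K36me3 bins in 16 of 21 genes, against 34% of protein-coding genes, and H3K9me3 bins in 8 of 21, a share near the 40.2% of protein-coding genes. Their median H3K9me3 coverage was 0. H3K36me3 covered 80.87% of Phc1, 79.61% of Suz12, 72.03% of Rbbp4 and 19.63% of Ezh2. H3K9me3 reached Hox-like coverage at the chromobox gene Cbx8 (24 of 24 bins), and covered 59.18% of Bmi1 and 42.86% of Ring1, and these 3 genes had no H3K36me3 bin. The Trithorax and MLL genes, which keep Hox genes active, had H3K36me3 in 8 of 8 genes, from 10.9% of bins at Ash1l to 81.65% at Ash2l, and H3K9me3 in 3 of 8, with 8.228% at most.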

How the data were processed

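ChIP-seq libraries of H3K9me3 (antibody ab8898) and H3K36me3 from WT and G34R mouse ES cells were analysed from the 2 deposited region lists, 1 for each mark, whose columns hold positions only and no measured value. According to the study's methods and the submitters' processing notes, the authors aligned reads to mm9 with Bowtie 1.0.0 (at most 5 alignments), removed duplicates, counted 200 bp bins in SeqMonk, scaled the counts to total reads, matched the WT and G34R distributions, retained bins in UCSC genes above the 95th percentile in either cell type, and joined bins within 100 bp with bedtools 2.20.1. The authors then applied a size limit and removed regions with extreme read counts, and the narrowest region in the lists is 600 bp wide. The percentile fixes how much of the genome each list can hold, so a list is no measure of the amount of a mark, and positions outside genes cannot appear. The study's methods describe no correction of these counts by an input library, and none of the 4 libraries was an input. Whether the Hox bins would be listed after such a correction was not tested.

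Here, bins of 200 bp were assigned to GENCODE vM1 genes on mm9 by 1 bp of overlap with the outer bounds of the gene, in Python 3.11.15 with NumPy 2.4.6. Bins shared by overlapping Hox genes were counted once in totals. Gene parts were assigned in the order start (within 1 kb), coding sequence, untranslated region, other exon and intron. Comparison genes were all other protein-coding genes with 80% to 125% of the length and a G+C within 2 points, and none was drawn at random. All 39 Hox genes enter the counts, 1 of them and some sequences are not reported here individually, and the 14 with the most bins in a list are given with their positions. The nearest 2 protein-coding neighbours on each side and the marked members of the regulator lists are also named, with examples from the longer lists. No filter on low values was used, and no column of single samples was left unused (0). Counting was tested on simulated lists. The Hox genes and the gene lists were chosen with earlier results of these data known. Alternatives covered gene bounds, region width, joining, bin rule, start window and the comparison sets.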

Additional observations from a re-analysis of the deposited data

How the results depend on the processing

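Under the alternatives, 45 of 67 values stayed within their counting interval, or within 1.5-fold for counts, 22 moved and no direction turned. The 45 are no measure of stability, since they include all 31 H3K36me3 values, which were 0. The nearest H3K36me3 bin was 120.2 kb from a cluster, so no alternative could have raised them. They also include the H3K9me3 gene counts, which were at their limit. All 39 genes kept H3K9me3 under every alternative that used all 39. The 22 values that moved were all H3K9me3 shares or ratios. The share of Hox bins in the H3K9me3 list was 94.47% from first to last coding base, 83.59% with regions of at least 1000 bp, 91.87% with regions within 2 kb joined, and 94.33% without Hoxa3, Hoxc4 and Hoxd3, an alternative chosen after seeing the data. The share of those bins near gene starts was 11.64% in 500 bp, 38.24% in 2 kb, 36.94% around all transcript starts and 23.5% without the 3 genes. The bin ratio was 8.543 from first to last coding base, 10.63 with 2 kb flanks, 14.34 with regions of at least 1000 bp, 9.992 with joined regions, 12 with G+C alone, 8.578 with CpG count and gene part, and 10.08 with all transcript starts. The gene ratio was 2.601 from first to last coding base, 5.095 with regions of at least 1000 bp, 2.952 with bins by their centre, 2.942 with wider limits (1.5-fold and 3 points), 3.497 with length alone, 1.982 with length and CpG per kb, and 3.117 without the 3 genes. No paired analysis was possible because each group is 1 library and the lists pool WT and G34R cells. Depth is unknown, and a bin outside a list may be below the authors' threshold, outside their gene set, in a run under 600 bp or in a region removed for extreme counts, so absence of the mark cannot be read from it.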
